A study of Mus musculus with 18 samples.

Results

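Fetub, Hs3st3b1 and Hdc are 3 mouse genes whose RNA was plentiful in only part of the libraries from the serine-free CD group and low in the serine-free HFD group. They are 3 of the 54354 gene rows of the series, each found by its symbol on a single row, and they were picked for that pattern in these same libraries. Their levels and their fold changes between the diets are therefore a description, with no test, and the choice stated no numerical limit. The serine-free HFD group (SF_HFD below) and the serine-free CD group (SF_CD) had 5 libraries each. The labels give every library as colon, cell type tumor and genotype wild type, from mice or cultures on the named diet, and the 10 libraries share the absence of serine. The design text spells HFD out as a high fat diet set against matched controls, and the labels do not spell out CD. A further 5 HFD and 3 CD libraries with serine were not used, because the row labels do not name the genes counted in their columns: Actb, the cytoskeletal actin gene that nearly all cells express, is listed with 0 counts in all 8 and with at least 1830 counts in every serine-free library. The extraction protocol names organoids, epithelial cultures grown in a gel, whereas the design text describes live cells sorted from colons and colon tumors, and it is not known here which of these gave the RNA. No strain, age or number of animals per library is given in the sources used here. The RNA was poly(A)-selected and sequenced with strand kept.

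The 3 genes work in unrelated places. Fetub encodes fetuin-B, a plasma glycoprotein of the cystatin superfamily that is made mainly by the liver and that, in the mouse, keeps the egg coat open to sperm by inhibiting the astacin protease ovastacin. Hs3st3b1 encodes a heparan sulfate 3-O-sulfotransferase, a Golgi enzyme that places a rare sulfate group on heparan sulfate, the sugar chain of cell surface and matrix proteoglycans that binds growth factors and protease inhibitors. Hdc encodes histidine decarboxylase, the enzyme that makes histamine from histidine. It is known from mast cells, basophils, enterochromaffin-like cells of the stomach and, in the mouse, immature myeloid cells, while in the gut wall diamine oxidase breaks histamine down.

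On mm10, Fetub (ENSMUSG00000022871) lies on the plus strand at chr16:22918334-22939778, Hs3st3b1 (ENSMUSG00000070407) on the minus strand at chr11:63885792-63922290 and Hdc (ENSMUSG00000027360) on the minus strand at chr2:126593667-126619299. No other annotated gene overlaps any of them in GENCODE M21. The 250 bases before each RefSeq start on GRCm38.p6, the assembly called mm10, are shown because 3 genes on 3 chromosomes were high in the same libraries. Each is written 5′ to 3′ on its gene's own strand. Capitals mark matches on either strand to the TATA box, searched as TATAAA, to the GC box, searched as GGGCGG, to the box named for its letters CCAAT and to the TCF/LEF core, searched as ATCAAAG, so that a match on the other strand reads as its reverse complement.
Fetub, chr16:22918132-22918381, plus strand: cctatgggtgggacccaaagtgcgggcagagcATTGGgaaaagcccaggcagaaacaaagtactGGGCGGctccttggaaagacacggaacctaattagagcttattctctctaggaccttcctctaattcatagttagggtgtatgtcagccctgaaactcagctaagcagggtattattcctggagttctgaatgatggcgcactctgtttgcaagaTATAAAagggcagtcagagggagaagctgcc
Hs3st3b1, chr11:63922285-63922534, minus strand: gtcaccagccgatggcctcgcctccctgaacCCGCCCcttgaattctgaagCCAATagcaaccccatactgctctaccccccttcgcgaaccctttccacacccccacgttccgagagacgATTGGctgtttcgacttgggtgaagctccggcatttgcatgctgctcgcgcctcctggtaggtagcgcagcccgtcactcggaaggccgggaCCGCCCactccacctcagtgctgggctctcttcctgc
Hdc, chr2:126618679-126618928, minus strand: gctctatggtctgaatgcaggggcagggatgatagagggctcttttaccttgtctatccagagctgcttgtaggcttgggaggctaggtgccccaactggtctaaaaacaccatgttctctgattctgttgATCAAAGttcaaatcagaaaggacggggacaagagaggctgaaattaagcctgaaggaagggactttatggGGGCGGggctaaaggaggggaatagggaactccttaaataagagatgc
Fetub alone of the 3 had a TATA box, beginning 31 bases before the start, a motif found in 12.4% of the 32851 promoters of the same length in the table. All 3 held a GC box, as did 32.7% of promoters, at 186 bases before the start in Fetub, at 219 and 37 in Hs3st3b1 and at 48 in Hdc. A CCAAT box, present in 33.8% of promoters, stood 218 bases before the start of Fetub and 199 and 129 bases before that of Hs3st3b1. Hdc held the TCF/LEF core 119 bases before its start, against 3.21% of promoters. The GATA core AGATAA (9.99% of promoters), the AP-1 core TGANTCA (6.75%), the E-box CACGTG (6.02%) and the cyclic AMP response element TGACGTCA (1.55%) had no match in these 3 windows. None of the motifs searched overlapped another in the 3 windows. Hs3st3b1 had the richest sequence in G and C, at 62.4% with 17 CpG, against 49.2% with 4 CpG for Fetub and 48.8% with 2 CpG for Hdc. The table held 2 starts for Fetub, of which one is shown. The RefSeq start used lies 48 bases inside the GENCODE gene for Fetub, 6 bases inside for Hs3st3b1 and 621 bases inside for Hdc, so the Hdc window falls within the longest annotated extent of the gene. The matches are letters in a window and were not tested as binding sites.

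The serine-free libraries differed widely in depth. Totals were 727610 to 12146933 counts in SF_HFD and 499774 to 12841275 in SF_CD, and 3 libraries had under 1000000 counts, namely SF_HFD library 5 and SF_CD libraries 1 and 5. Levels are given as CPM, counts per 1000000 after TMM scaling, which are not divided by gene length and so are compared between libraries and not between genes. A count of 0 allows up to 3 counts, which is 3.79 CPM in SF_HFD library 5, 6.76 CPM in SF_CD library 1 and 5.84 CPM in SF_CD library 5, and 0.226 to 0.691 CPM in the other 7. Annotated ribosomal RNA made up 22.0% of the counts of SF_CD library 1 and 14.5% of those of library 5, and 2.08% to 7.19% elsewhere. Epithelial markers such as Epcam, an adhesion protein of epithelial cells, and the keratins summed to 4553 to 7159 CPM in SF_HFD and 2194 to 4950 CPM in SF_CD. In bulk RNA of this kind, fewer cells of a type and less RNA per cell cannot be told apart. The labels leave unsaid whether each library is another animal or another culture. Every p-value here therefore measures only the spread between libraries.

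Fetub was almost silent in SF_HFD and ranged over more than an order of magnitude within SF_CD. It had 0.181, 0.691, 1.11, 0 and 0 CPM in SF_HFD libraries 1 to 5, on 2, 3, 12, 0 and 0 counts. In SF_CD libraries 1 to 5 it had 2.25, 5.62, 7.29, 75.8 and 37.0 CPM, on 1, 51, 52, 999 and 19 counts. SF_CD libraries 4 and 5 were high, libraries 2 and 3 were intermediate, and the lowest SF_CD value lay above the highest SF_HFD value, although that lowest value is a single count. Its exact Poisson 95% interval, which covers counting error only, ran from 0.0571 to 12.6 CPM and so takes in the 3 SF_HFD values above 0. The intervals of SF_CD libraries 2 (4.18 to 7.39 CPM) and 3 (5.44 to 9.55 CPM) overlapped each other, and both lay above that of the highest SF_HFD library, 0.574 to 1.94 CPM. The intervals of SF_CD libraries 4 (71.2 to 80.7 CPM) and 5 (22.3 to 57.8 CPM) did not meet, with library 4 higher. Means were 0.396 ± 0.489 CPM in SF_HFD and 25.6 ± 31.3 CPM in SF_CD (n = 5 each, ± SD), with a log2 fold change of -5.83 ± 1.04 (SE). The SF_CD SD exceeded its mean, and the SF_CD mean was 13.0 CPM without library 4 and 5.05 CPM without libraries 4 and 5.

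Hs3st3b1, the sulfotransferase, followed nearly the same order of libraries. It had 1.90, 1.15, 1.85, 0.679 and 0 CPM in SF_HFD libraries 1 to 5, on 21, 5, 20, 9 and 0 counts. The SF_CD values were 4.51, 4.85, 7.29, 53.7 and 79.8 CPM, on 2, 44, 52, 707 and 41 counts. The groups did not overlap, although the lowest SF_CD value, in library 1, is 2 counts. Its 95% interval of 0.546 to 16.3 CPM takes in the highest SF_HFD value. SF_CD libraries 4 and 5 again stood apart from libraries 1 to 3. Unlike the other 2 genes, its highest library was SF_CD library 5, at 79.8 CPM (95% interval 57.3 to 108), with library 4 below it at 53.7 CPM (49.8 to 57.8). Those intervals met only at their edges, so the order of the pair is not firm at this depth. Means were 1.12 ± 0.805 CPM in SF_HFD and 30.0 ± 34.8 CPM in SF_CD (n = 5 each, ± SD), with a log2 fold change of -4.46 ± 0.84 (SE). The SF_CD mean was 24.1 CPM without library 4, 17.6 CPM without library 5 and 5.55 CPM without both.

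Hdc was the most uneven of the 3. In SF_HFD it had 0, 0, 0.0925, 0 and 1.26 CPM in libraries 1 to 5, which is 1 count in library 3 and 1 count in the shallow library 5. In SF_CD it had 0, 1.21, 1.82, 102.6 and 46.7 CPM, on 0, 11, 13, 1352 and 24 counts. The groups overlapped, through the 0 of SF_CD library 1 and the single count of SF_HFD library 5, both of them shallow libraries. Among the 7 libraries of at least 1000000 counts they did not overlap, with at most 0.0925 CPM in SF_HFD and at least 1.21 CPM in SF_CD. SF_CD library 4 alone held 96.6% of the Hdc counts of SF_CD, against 89.0% of those of Fetub and 83.6% of those of Hs3st3b1. Means were 0.271 ± 0.556 CPM in SF_HFD and 30.5 ± 44.9 CPM in SF_CD (n = 5 each, ± SD). Fitted values for so few SF_HFD counts depend on the prior count, and the log2 fold change of -8.77 ± 1.68 (SE) is not a bound. From counts summed over the libraries, the SF_HFD level was 0.108% of the SF_CD level, with a counting interval of 0.0130% to 0.390%. The corresponding shares were 1.14% (0.663% to 1.84%) for Fetub and 4.90% (3.66% to 6.44%) for Hs3st3b1. The sums follow the deep libraries, and most of the SF_CD sum is library 4. The SF_CD mean of Hdc was 12.4 CPM without library 4 and 1.01 CPM without libraries 4 and 5.

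**Figure D1:**
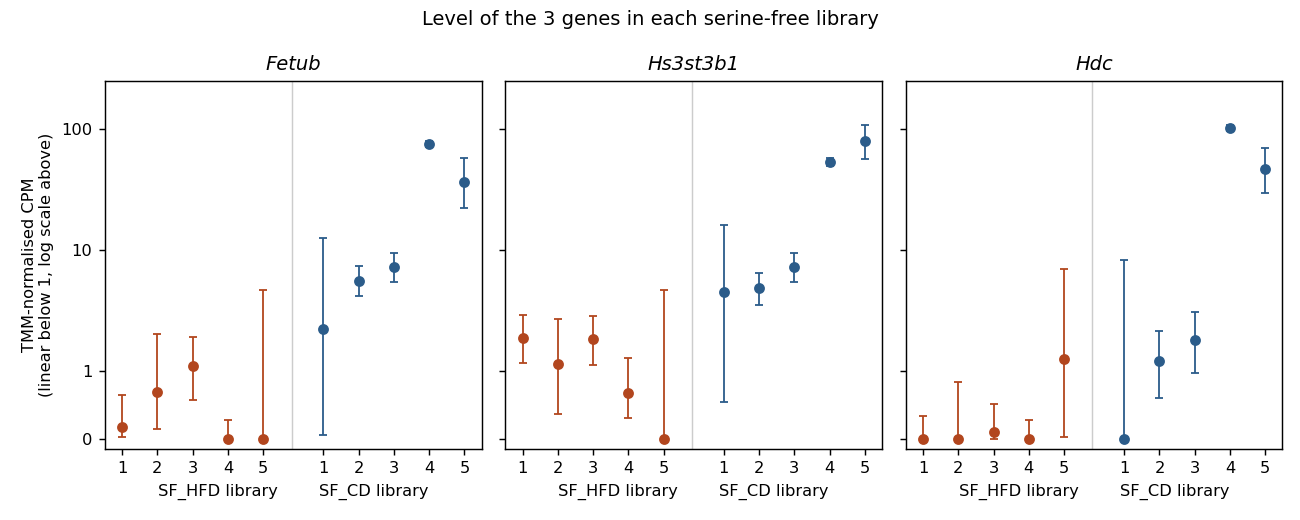
TMM-normalised CPM (vertical axis, linear below 1 and log scale above) of the 3 genes in each SF_HFD library (left, orange) and SF_CD library (right, blue), points with exact 95% Poisson intervals. SF_CD libraries 4 and 5 reach 75.8 and 37.0 CPM for Fetub, 53.7 and 79.8 for Hs3st3b1 and 102.6 and 46.7 for Hdc, while no SF_HFD library passes 1.90 CPM for any of them.

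In the comparison of SF_HFD with SF_CD over all genes (edgeR quasi-likelihood test, Benjamini-Hochberg adjustment), 38 of 11780 genes tested were called at an adjusted p under 0.05, of which 18 were higher and 20 lower in SF_HFD. All 3 genes passed the filter on low counts, through their SF_CD counts, and all 3 were among the 20 lower ones, which are 0.17% of genes tested (the higher ones are 0.153%). They were chosen on this contrast and nothing is read from that. The calls were also not stable. Leaving out single libraries ended them in 6 of 10 fits for Fetub (without SF_CD library 4 or 5 or SF_HFD library 1, 2, 4 or 5), in 8 of 10 for Hs3st3b1 (all but those without SF_CD library 2 or 3) and in 7 of 9 for Hdc (likewise), with edgeR adjusted p up to 0.0761, 0.115 and 0.113. Without SF_CD library 4, Hdc did not pass the filter on low counts and was not fitted. Without the 3 shallow libraries the edgeR adjusted p was 0.155 for each of the 3. The groups did not overlap, with SF_HFD lower, for 2 of the 3 and for 1.42% of all genes tested, and with SF_HFD higher for 0 of the 3 and 2.23% of all. The median log2 fold change over all genes tested was 0.02.

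The 3 genes varied within SF_CD more than within SF_HFD, as most genes did. On the log2 CPM scale (prior count 2), the SD among SF_HFD and among SF_CD libraries was 1.05 and 2.02 for Fetub, 1.21 and 1.96 for Hs3st3b1, and 1.06 and 3.58 for Hdc. The medians over all genes tested were 0.54 in SF_HFD and 1.02 in SF_CD, and 79.9% of genes had the larger SD in SF_CD. Within SF_CD the SD of Hdc lay at percentile 99.9 of all genes tested, with 13 genes at or above it, while Fetub lay at percentile 87.0 and Hs3st3b1 at 85.6. Low counts widen log2 spreads. Among genes within 0.5 log2 units of the same mean level, Hdc was at percentile 99.8 (1260 genes), Fetub at 70.9 (1478 genes) and Hs3st3b1 at 61.1 (1620 genes). These spreads are part of what the 3 genes were chosen for, and the percentiles describe them.

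**Figure D2:**
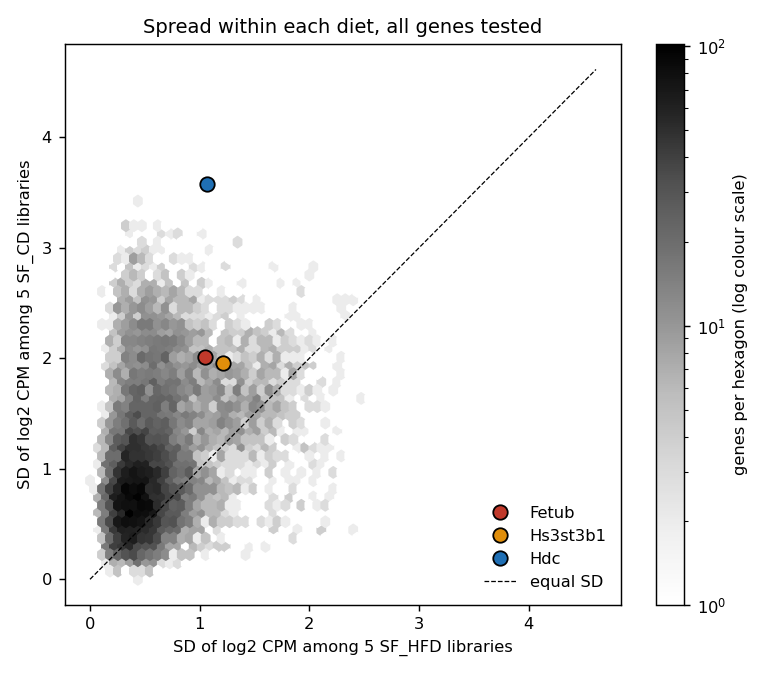
SD of log2 CPM among the 5 SF_HFD libraries (horizontal axis) and among the 5 SF_CD libraries (vertical axis), with hexagons shaded by the number of genes tested on a log colour scale. Most genes lie above the dashed line of equal SD, and Hdc, at 3.58 in SF_CD, lies above nearly all of them.

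All 3 genes had SF_CD libraries 4 and 5 as their highest 2 of 10. That pair was the highest in 592 genes, 5.03% of those tested and the most common but one of 45 pairs. The most common pair, SF_CD libraries 1 and 5, both shallow and rich in ribosomal RNA, was the highest in 1483 genes (12.6%). The distance from SF_CD libraries 4 and 5 down to the next library restates how the 3 genes were chosen and is given as a description. Over the 592 genes, the gap in log2 CPM from the lower of the pair to the third library had a median of 0.37 and reached 2 or more in 41 genes, 0.348% of genes tested. It was 4.48 for Hdc (rank 5 of 592), 2.83 for Hs3st3b1 (rank 21) and 2.30 for Fetub (rank 31). The widest gap, 5.24, was that of Kif1a, a kinesin motor of axonal transport. The pair itself is unlike in technical measures, with 12841275 counts and 2.40% ribosomal RNA in SF_CD library 4, against 523601 counts and 14.5% in library 5. SF_CD library 1, as shallow as library 5 at 499774 counts and richer in ribosomal RNA, had 1, 2 and 0 counts of Fetub, Hs3st3b1 and Hdc, against 19, 41 and 24 in library 5. The part of depth or ribosomal RNA in these levels was not tested, and nothing is read from these values about it. Among the 7 deep libraries alone, library 4 of SF_CD was above the next library by 10.4-fold for Fetub, 7.36-fold for Hs3st3b1 and 56.3-fold for Hdc. It was the highest of those 7 in 15.9% of genes tested.

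**Figure D3:**
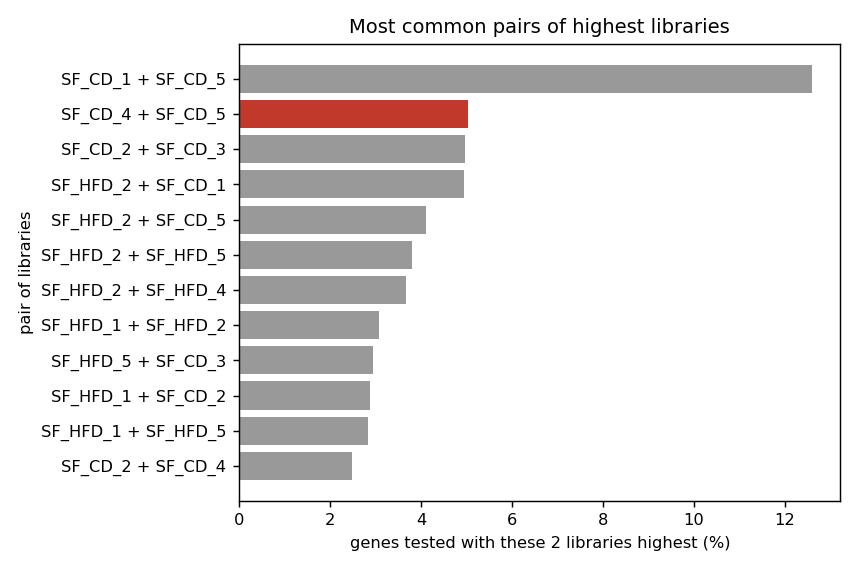
Share of the genes tested (horizontal axis, %) for which each pair of libraries (vertical axis) held the highest 2 values, for the most common pairs. The pair shared by Fetub, Hs3st3b1 and Hdc, in red, accounts for 5.03% of genes, below SF_CD libraries 1 and 5 at 12.6%.

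The proportions among the 3 genes in single libraries are given with intervals that cover counting error only, leave out the spread between libraries and support no test. Fetub made up 42.5% of the summed counts of Fetub and Hdc in SF_CD library 4 (exact 95% binomial interval 40.5 to 44.5) and 44.2% in library 5 (29.1 to 60.1). In libraries 2 and 3, by contrast, it made up 82.3% (70.5 to 90.8) and 80.0% (68.2 to 88.9). The last 2 shares rest on 11 and 13 counts of Hdc. Of the summed counts of Fetub and Hs3st3b1, Fetub made up 53.7%, 50.0% and 58.6% in SF_CD libraries 2, 3 and 4 and 31.7% (20.3 to 45.0) in library 5. The interval in library 4, 56.2 to 60.9, lay above that in library 5. In SF_HFD library 3, the SF_HFD library with the most Fetub counts, the share was 37.5% (21.1 to 56.3), from 12 counts of Fetub and 20 of Hs3st3b1.

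Across the 10 libraries, Pearson's r of log2 CPM was 0.95 between Fetub and Hs3st3b1, 0.85 between Fetub and Hdc and 0.80 between Hs3st3b1 and Hdc (Spearman's rho 0.94, 0.78 and 0.67). Over the 8 libraries other than SF_CD 4 and 5 the same r was 0.88, 0.46 and 0.11. The points share their libraries, their depth and the choice of these genes, and the values are a description. Those 8 libraries still span both diets, and both Fetub and Hs3st3b1 were chosen as low in SF_HFD. Their r of 0.88 therefore partly restates that choice and shows no tie apart from it. The r values with Hdc rested largely on SF_CD libraries 4 and 5.

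The genes most like them were found by r of log2 CPM over the 10 libraries among 11767 other genes tested. The 6 nearest to each and the 8 nearest on average make 19 different genes, of which 18 are described here. The one left out is among the nearest on average. All 18 had SF_CD libraries 4 and 5 highest, as the likeness favours, 10 had groups that did not overlap with SF_HFD lower (1.42% of all genes tested did), and 4 were among the genes called lower in SF_HFD (0.17%). Among the nearest on average were Itga4 (mean r 0.93), the integrin alpha 4 chain, and Igfbp5 (0.92), a secreted binding protein of insulin-like growth factors. Over all genes compared, 84 had a mean r above 0.8 and 5 above 0.9.

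Igfbp5 was nearest to Fetub, with r = 0.98. It had 0, 0.691, 1.48, 0 and 0 CPM in SF_HFD libraries 1 to 5 and 4.51, 4.63, 5.89, 53.3 and 56.5 CPM in SF_CD libraries 1 to 5. Its log2 fold change was -5.59 ± 1.12 (SE; edgeR adjusted p = 0.0469). Igf1, the growth factor that Igfbp5 binds, had 0.905, 0.922, 8.79, 1.21 and 2.53 CPM in SF_HFD and 40.6, 11.6, 14.0, 662 and 545 CPM in SF_CD (log2 fold change -6.41 ± 1.26, adjusted p = 0.0469 by edgeR). Itga4 had 0 to 0.647 CPM in SF_HFD and 2.25, 1.65, 1.54, 44.4 and 56.5 CPM in SF_CD (-6.33 ± 1.21, edgeR adjusted p = 0.0314), and it was among the nearest to both Fetub (r = 0.94) and Hs3st3b1 (0.95). Olfm5, an olfactomedin family gene, was the fourth one called, at 0 to 3.61 CPM in SF_HFD and 6.94 to 83.3 CPM in SF_CD (-4.29 ± 0.84, edgeR adjusted p = 0.0389). These 4 genes were low throughout SF_HFD and far higher in SF_CD libraries 4 and 5 than in the other 3. Likeness to genes chosen on this contrast favours the same difference, so nothing is read from the 4 calls. Each of them lost its call in 7 of 10 fits that left out a single library, namely those without SF_CD library 1, 4 or 5 or SF_HFD library 1, 2, 4 or 5, with edgeR adjusted p up to 0.145 for Igfbp5, 0.130 for Igf1, 0.115 for Itga4 and 0.117 for Olfm5.

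Others near Fetub did not pass the test. Adh7, an alcohol and retinol dehydrogenase, had 0 to 1.94 CPM in SF_HFD and 6.76, 1.98, 3.22, 313 and 136 CPM in SF_CD (edgeR adjusted p = 0.0702). Armh4 had 0.0905, 0.230, 9.06, 0 and 0 CPM in SF_HFD and 29.3, 7.71, 10.8, 708 and 767 CPM in SF_CD (edgeR adjusted p = 0.0982). Within SF_HFD, library 3 was the highest for 13 of the 18 genes, as it was for Fetub at 1.11 CPM. For Fetub that value was 1.46% of the level in SF_CD library 4, for Hs3st3b1 library 3 stood at 3.45% and for Hdc at 0.0902%.

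Nearest to Hs3st3b1 were A2ml1 (r = 0.96), a relative of the protease inhibitor alpha-2-macroglobulin, Aoc1 (0.96), Apcdd1 (0.96), an inhibitor of Wnt signalling, Itga4, Thbs2 (0.95), a thrombospondin of the matrix, and Tcaf2 (0.95), a regulator of a TRPM channel. A2ml1 had 0 to 6.20 CPM in SF_HFD and 6.76, 8.59, 11.5, 183 and 181 CPM in SF_CD (log2 fold change -4.18, edgeR adjusted p = 0.0760). Apcdd1 was present in all 10 libraries, at 1.26 to 15.5 CPM in SF_HFD and 19.1 to 120 CPM in SF_CD (-2.75, edgeR adjusted p = 0.0743). Apart from Itga4, none of the genes nearest to Hs3st3b1 passed the test over all genes.

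Nearest to Hdc were Gstm2 (r = 0.97), a glutathione transferase, 4930425O10Rik (0.97), Ank2 (0.95), an ankyrin that anchors membrane proteins, Gm48146 (0.95), Igtp (0.94), an interferon-induced GTPase, and Kif1a (0.93). Several of these differed little between the diets outside SF_CD libraries 4 and 5. Gstm2 had 7.87 to 17.7 CPM in SF_HFD and 11.3, 19.5, 25.5, 145 and 56.5 CPM in SF_CD (log2 fold change -2.08, edgeR adjusted p = 0.166). Igtp had 4.23 to 7.40 CPM in SF_HFD and 4.51, 8.70, 7.71, 19.8 and 15.6 CPM in SF_CD (-1.11, edgeR adjusted p = 0.358). Kif1a, closer to the members in size, had 0 to 1.48 CPM in SF_HFD and 2.25, 2.09, 1.68, 96.1 and 95.4 CPM in SF_CD (-5.56, edgeR adjusted p = 0.0784). Gstm5, another glutathione transferase and near on average, was abundant everywhere, with 70.7 to 123 CPM in SF_HFD and 106, 116, 192, 577 and 300 CPM in SF_CD (-1.40, edgeR adjusted p = 0.219). Likeness by r is therefore one of the shape of the profile over libraries and not of size of change.

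These neighbours had the same 2 highest libraries as the genes themselves. Likeness was not taken again without both of those libraries. Of the 8 genes nearest on average, 1 was again among the nearest 8 without the 3 shallow libraries, and 0 were when r was taken within the 5 SF_CD libraries alone, an alternative chosen after seeing the data.

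**Figure D4:**
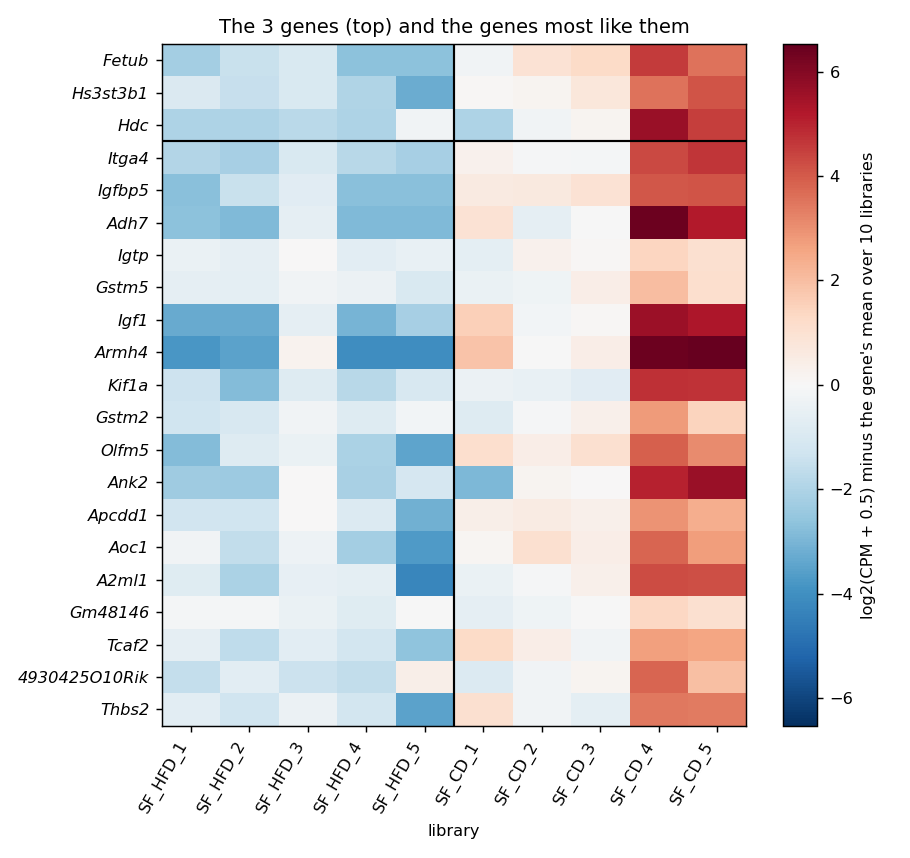
Log2(CPM + 0.5) minus each gene's mean over the 10 libraries (colour), for Fetub, Hs3st3b1 and Hdc (top rows) and 18 genes like them, in SF_HFD (left) and SF_CD (right) libraries. The columns of SF_CD libraries 4 and 5 are the highest in all 18 like genes, and SF_HFD library 3 is the highest SF_HFD column in 13 of them.

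Genes of the pathways around the 3 were read next. The 7 lists of related genes hold 104 entries, and 51 genes other than the 3 themselves were tested. None of the 51 was called by edgeR, where 0.323% of all genes were, so a count of 0 does not set them apart. Of the 51, 6 had an unadjusted p under 0.05, a count whose share over all genes was not taken. DESeq2 called 1 of the 51, Aoc1, against 298 of 11780 over all genes. Nothing is read from these counts, here or for the single lists below. The 51 had a median log2 fold change of 0.25, with 34 positive and 17 negative. Over all genes tested the median was 0.02, with 6051 positive and 5729 negative. With no filter on low counts, Ahsg and Gad2 of these lists were called as well, where 78 of 24377 genes were.

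For heparan sulfate, 0 of 20 tested genes of chain synthesis and sulfation passed (median log2 fold change 0.33, with 14 positive), nor did any of 10 for trimming and breakdown (median 0.33, with 9 positive) or of 9 core proteins (median 0.06, with 5 positive). By edgeR, 2, 1 and 1 genes of these lists had an unadjusted p under 0.05, and DESeq2 called 0 of them. Ugdh, which makes the UDP-glucuronic acid from which the chain is built, had 98.7, 48.2, 148, 152 and 136 CPM in SF_HFD and 40.6, 62.5, 78.9, 34.1 and 21.4 CPM in SF_CD (log2 fold change 1.26 ± 0.41, edgeR adjusted p = 0.240). Papss1, a synthase of the sulfate donor PAPS, had 39.2 to 59.1 CPM in SF_HFD and 9.02 to 91.6 CPM in SF_CD (0.25 ± 0.50, edgeR adjusted p = 0.893). Papss2, also a PAPS synthase, had 18.6, 24.4, 25.7, 4.75 and 10.1 CPM in SF_HFD and 15.8, 19.9, 10.6, 0.455 and 0 CPM in SF_CD (0.82, edgeR adjusted p = 0.725). Its lowest values were in the 2 libraries where Hs3st3b1 was highest, but the 0 of SF_CD library 5 allows 5.84 CPM, above SF_HFD library 4. Among breakdown enzymes, Gusb, the lysosomal beta-glucuronidase, had 27.9 to 63.9 CPM in SF_HFD and 1.95 to 71.7 CPM in SF_CD (0.25 ± 0.53, edgeR adjusted p = 0.903). Among core proteins, Cd44 had 92.4 to 256 CPM in SF_HFD and 117 to 1096 CPM in SF_CD (-0.96 ± 0.54, edgeR adjusted p = 0.516), its highest value being in SF_CD library 1. Sdc4, syndecan-4, had 150 to 233 CPM in SF_HFD and 93.3 to 347 CPM in SF_CD (0.06 ± 0.36, edgeR adjusted p = 0.971).

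Within the 3-O-sulfotransferase family, the closest relative went with Hs3st3b1. Hs3st3a1, which makes the same kind of modification, was too rare to be tested, with 0 counts in all 5 SF_HFD libraries and in SF_CD libraries 1 to 3, and 40 and 2 counts (3.04 and 3.89 CPM) in SF_CD libraries 4 and 5. The 2 genes share part of their sequence: 479 of the 4881 stretches of 31 bases in Hs3st3b1 (9.81%) also occur in other transcripts, and the longest run it shares with Hs3st3a1 is 401 bases, inside the coding part of both. The division of reads from that stretch is uncertain, and Hs3st3b1 had 707 counts where Hs3st3a1 had 40. Fetub shared 0 of 2049 such stretches with other genes and Hdc 27 of 6363 (0.424%). Hs3st1, the family member known for making the antithrombin-binding site of heparin, had 12.2, 34.1, 17.0, 30.9 and 11.4 CPM in SF_HFD and 27.1, 6.94, 13.2, 9.11 and 11.7 CPM in SF_CD, with overlapping groups (0.78 ± 0.47, edgeR adjusted p = 0.540). Hs3st2, Hs3st4 and Hs3st5 had no count in any of the 10 libraries.

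Around Hdc, the histamine list had 3 other tested genes, all with negative log2 fold changes (median -1.06), 0 of them called by edgeR. Aoc1, the diamine oxidase that degrades histamine outside cells, had the highest mean r with the members among these 3 (0.86). Its r was 0.96 with Hs3st3b1 and 0.70 with Hdc. It had 5.07, 1.61, 4.62, 0.906 and 0 CPM in SF_HFD libraries 1 to 5 and 6.76, 12.9, 8.27, 91.2 and 42.8 CPM in SF_CD libraries 1 to 5. The groups did not overlap, although the lowest SF_CD value, in library 1, is 3 counts. SF_CD libraries 4 and 5 were again the highest (log2 fold change -3.56 ± 0.78, edgeR adjusted p = 0.0702, past the threshold by DESeq2). Maoa, monoamine oxidase A, had 40.5, 21.0, 17.1, 12.2 and 12.6 CPM in SF_HFD and 6.76, 22.8, 19.5, 84.2 and 58.4 CPM in SF_CD, again highest in SF_CD libraries 4 and 5, with overlapping groups (-0.89 ± 0.55, edgeR adjusted p = 0.548). Slc18a1, a vesicular monoamine transporter, had 0 to 8.60 CPM in SF_HFD and 0.701 to 14.7 CPM in SF_CD (-1.06, edgeR adjusted p = 0.645). The enzyme that makes histamine and the enzyme that degrades it were thus both highest in SF_CD libraries 4 and 5, as were 5.03% of all genes tested. Several other parts of the system had no counts. Slc18a2, the transporter that loads histamine into vesicles, Hnmt, the intracellular histamine methyltransferase, Slc22a3 and the receptors Hrh2, Hrh3 and Hrh4 had 0 counts in all 10 libraries, and Hrh1 had 16 counts in SF_HFD and 7 in SF_CD.

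Of the other decarboxylases and genes of histidine breakdown, 0 of 4 tested were called by edgeR, 1 (Odc1) at an unadjusted p under 0.05, and 0 by DESeq2 (median log2 fold change 0.39). Odc1, ornithine decarboxylase, had 45.9 to 169 CPM in SF_HFD and 13.5 to 47.7 CPM in SF_CD (1.13 ± 0.45, edgeR adjusted p = 0.341). Amd1, of polyamine synthesis, had 58.1 to 147 CPM in SF_HFD and 63.0 to 461 CPM in SF_CD (-0.77 ± 0.50, edgeR adjusted p = 0.579). Ddc, the closest relative of Hdc, which makes dopamine and serotonin, was too low to be tested, with 99 counts in SF_HFD and 15 in SF_CD and none in SF_CD libraries 4 and 5. Gad2, a glutamate decarboxylase that makes GABA, was also untested and had 4 counts in SF_HFD and 151 in SF_CD, where it reached 10.6 and 11.7 CPM in libraries 4 and 5 and at most 0.560 CPM in the other 3. It was called with no filter (edgeR adjusted p = 0.0448), and it was singled out after its values were seen.

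Around Fetub, of 4 other tested genes of fetuins and cystatins, 0 were called by edgeR or DESeq2 and 0 had an unadjusted p under 0.05 (median log2 fold change -0.03). Cstb and Cst3, inhibitors of cathepsins, had 163 to 404 and 150 to 294 CPM in SF_HFD and 144 to 417 and 99.2 to 254 CPM in SF_CD (edgeR adjusted p = 0.792 and 0.821). Ahsg, fetuin-A, the paralog beside Fetub on the chromosome, was untested with 1 count in SF_HFD and 80 in SF_CD, and it had 4.86 CPM in SF_CD library 4, its highest library as for Fetub, and 0 in library 5. With no filter it was called (edgeR adjusted p = 0.0352). The astacin proteases, the family of ovastacin, were nearly absent. Astl, the gene of ovastacin, and Tll2 had 0 counts in all 10 libraries, and Bmp1, the one astacin gene tested, had 0.922 to 6.32 CPM in SF_HFD and 0 to 5.84 CPM in SF_CD (0.70 ± 0.75, edgeR adjusted p = 0.772). That list had 0 genes at an unadjusted p under 0.05 and 0 called by DESeq2.

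**Figure D5:**
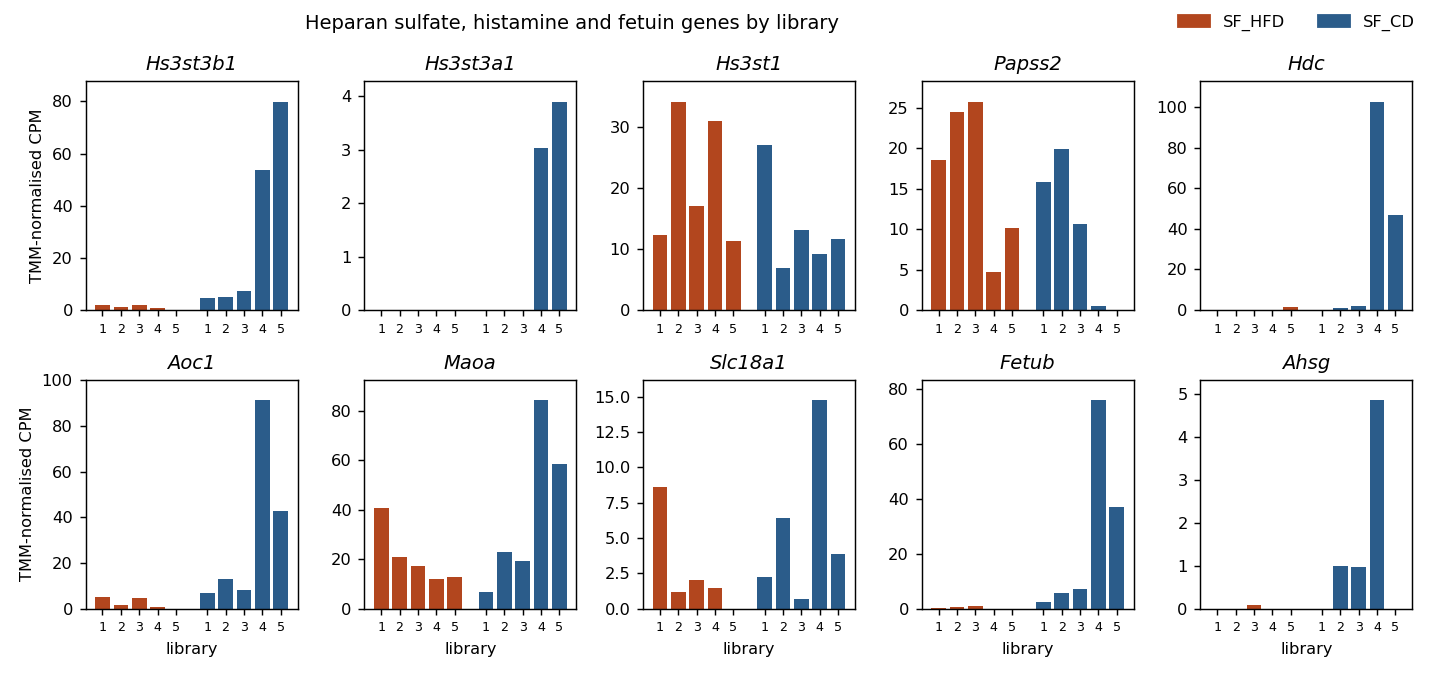
TMM-normalised CPM (vertical axes, each from 0 on its own scale) by library for Hs3st3b1, Hdc, Fetub and genes of their pathways, with SF_HFD bars in orange on the left and SF_CD bars in blue on the right. Aoc1 and Maoa share the high SF_CD libraries 4 and 5 (91.2 and 42.8 CPM, 84.2 and 58.4 CPM), while Hs3st1 and Papss2 do not.

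Markers of cells known to hold Hdc or Fetub were read in the same libraries. Mast cell markers summed to 59.4 to 106 CPM in SF_HFD and 12.7 to 101 CPM in SF_CD, with 5 of 12 at 0 in all 10 libraries, namely the proteases Cpa3, Mcpt4 and Tpsab1 and the IgE receptor chains Ms4a2 and Fcer1a. Most of the sum was Cma1, the mast cell chymase, at 34.3 to 77.7 CPM in SF_HFD and 8.80 to 101 CPM in SF_CD (lowest in SF_CD library 4 and highest in library 5), and Gata2, at 6.52 to 71.1 CPM in SF_HFD and 0 to 49.6 CPM in SF_CD. The lowest of the mast cell sums was in SF_CD library 4, the library with the most Hdc. The highest mast cell sum in SF_CD, 101 CPM, was in library 5, the other library high in Hdc, and it was all Cma1. Kit, the stem cell factor receptor of mast cells, had 0 counts in SF_HFD and 33 in SF_CD, at 2.43 CPM in library 4 and 0 in library 5. Basophil markers summed to 7.51 to 75.9 CPM in SF_HFD and 3.89 to 49.6 CPM in SF_CD, where libraries 4 and 5 had the lowest sums, 4.25 and 3.89 CPM. Most of the larger sums was Gata2, also on the mast cell list, at 0.379 and 0 CPM in SF_CD libraries 4 and 5. Cd200r3 went the other way within SF_CD, highest in libraries 4 and 5 at 3.04 and 3.89 CPM, but it reached 5.05 CPM in SF_HFD. Mcpt8 and Il3ra had at most 1.26 and 2.79 CPM, both in SF_HFD. Neutrophil and immature myeloid markers summed to 287 to 993 CPM in SF_HFD and 171 to 598 CPM in SF_CD, lowest in SF_CD library 4, with Elane, Camp and Ngp at 0 in all 10. Most of the sum was Ly6g, at 235 to 944 CPM in SF_HFD and 113 to 514 CPM in SF_CD, lowest in library 4. Cxcr2 did not share that low, with 18.3 to 46.7 CPM in SF_HFD and 54.6 and 56.5 CPM in SF_CD libraries 4 and 5. S100a8 had 1.06 and 0 CPM in those libraries. Enteroendocrine markers summed to 3.55 to 22.5 CPM in SF_HFD and 4.06 to 18.9 CPM in SF_CD, with Slc18a2, Rfx6 and Scgn at 0. SF_CD library 4 had the highest enteroendocrine sum in SF_CD, below the 22.5 CPM of SF_HFD library 1. It was the highest of the 10 libraries for Slc18a1 (14.7 CPM) and Tph1 (1.14 CPM, 15 counts), which makes serotonin. The same held for Pax6 (0.759 CPM), Chgb (0.379 CPM) and Neurod1 (0.228 CPM), on only 10, 5 and 3 counts. In SF_CD library 5, Slc18a1 had 3.89 CPM and Tph1, Pax6, Chgb and Neurod1 had 0. The other detected genes of the list did not share this. Sct and Cck had 0 in SF_CD library 4 and were highest in SF_HFD libraries 1 (11.8 CPM) and 3 (1.94 CPM). Chga, Insm1, Sst and Nts were also highest in an SF_HFD library, and Pyy and Gcg in another SF_CD library. Hepatocyte markers, for the tissue where fetuin-B is mainly made, summed to 0 to 37.3 CPM in SF_HFD and 3.89 to 27.1 CPM in SF_CD, with Serpina1a, Fgb and Fgg at 0. Of these 5 lists, none had a sum whose highest 2 libraries were SF_CD 4 and 5. The mast cell, basophil and neutrophil sums follow few genes, and which cells held the RNA of the 3 genes was not tested.

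Among the remaining marker lists, the crypt base stem cell genes Lgr5, the R-spondin receptor, and Smoc2 had the same 2 highest libraries. Lgr5 had 1.26 to 15.7 CPM in SF_HFD and 40.6, 11.5, 4.90, 64.7 and 123 CPM in SF_CD (log2 fold change -2.77 ± 0.75, edgeR adjusted p = 0.148). Smoc2 had 0 to 28.1 CPM in SF_HFD and 11.3, 18.3, 12.8, 119 and 93.5 CPM in SF_CD (-2.31 ± 0.84, edgeR adjusted p = 0.308). Other genes of the list went the other way. Ascl2 had 9.59 to 27.7 CPM in SF_HFD and 1.14 and 5.84 CPM (15 and 3 counts) in SF_CD libraries 4 and 5. Sox9 had 40.8 to 154 CPM in SF_HFD and 13.5 and 29.2 CPM in those 2 libraries, its lowest of the 10. As a whole the list of 6 did not have the order of Lgr5 and Smoc2. Its sum was 157 to 326 CPM in SF_HFD and 216 to 996 CPM in SF_CD, highest in SF_CD library 1. Dclk1, of the tuft cell list, was untested and had 12.7 and 15.6 CPM in SF_CD libraries 4 and 5 and at most 2.25 CPM elsewhere. Avil, of the same list, had 8.58 CPM in SF_CD library 4, its lowest of the 10, and 13.6 CPM in library 5. Ptgs1 had 16.9 and 13.6 CPM in those 2 libraries and 6.61 to 65.7 CPM in SF_HFD. The tuft list summed to 28.3 to 105 CPM in SF_HFD and 39.2 to 104 CPM in SF_CD.

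The marker lists did contain genes that passed the test, none of which singled out SF_CD libraries 4 and 5. In the smooth muscle list 3 genes were higher in SF_HFD, for example Acta2, smooth muscle actin, at 81.0 to 126 CPM in SF_HFD and 1.68 to 13.6 CPM in SF_CD (3.97 ± 0.55, edgeR adjusted p = 0.00232), and the list summed to 168 to 258 CPM in SF_HFD and 2.94 to 24.4 CPM in SF_CD. In the goblet list Muc2, the main colonic mucin, and Zg16, a mucus lectin, were lower in SF_HFD. Muc2 had 0.0905 CPM in SF_HFD library 1 and 0 in the other 4, and 2.25 to 3.89 CPM in SF_CD (-6.21 ± 0.83, edgeR adjusted p = 0.00170), and Zg16 had 0.0905 CPM in SF_HFD library 1 and 0 in the other 4, and 8.20 to 40.9 CPM in SF_CD (-8.49 ± 0.90, edgeR adjusted p = 0.000156). In the macrophage list Fcer1g, a shared Fc receptor chain, had 0.0755 CPM in SF_HFD library 4 and 0 in the other 4, and 1.37 to 5.84 CPM in SF_CD (-5.63 ± 0.91, edgeR adjusted p = 0.00826). In SF_HFD library 5 a count of 0 still allows 3.79 CPM. Fcer1g lost its call without SF_HFD library 1 or library 4 (edgeR adjusted p = 0.0854 without library 4), and without the 3 shallow libraries Fcer1g and Acta2 had edgeR adjusted p = 0.0845 and 0.0701. Muc2, Zg16 and Fcer1g were detected in all 5 SF_CD libraries. Macrophage markers summed to 21.4 to 42.9 CPM in SF_HFD and 35.1 to 121 CPM in SF_CD, and T and B cell markers to 1.15 to 2.96 CPM in SF_HFD and 0 to 2.86 CPM in SF_CD. Fibroblast markers summed to 61.7 to 130 CPM in SF_HFD and 11.8 to 93.5 CPM in SF_CD, and endothelial markers to 1.26 to 4.30 CPM in SF_HFD and 4.08 to 33.8 CPM in SF_CD. Goblet markers summed to 65.7 to 333 CPM in SF_HFD and 59.1 to 264 CPM in SF_CD. The part of cell makeup, depth or ribosomal RNA in the levels of the 3 genes was not tested.

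The genes next to each member on the chromosome were compared with it. Beside Fetub, Ahsg lies 18.9 kb away and Hrg, which encodes another plasma protein with cystatin domains, 11.3 kb away with 6 counts in all. Kng1 and Kng2, the kininogen genes further along, had 0 counts. Dnajb11, 38.7 kb away and a chaperone of the endoplasmic reticulum, had 20.2 to 35.4 CPM in SF_HFD and 15.8 to 34.9 CPM in SF_CD (edgeR adjusted p = 0.947). Beside Hdc, Slc27a2, a fatty acid transporter and acyl-CoA synthetase 5.42 kb away, had the same 2 highest libraries on few counts, with 0 in all SF_HFD libraries and 2.35 and 11.7 CPM in SF_CD libraries 4 and 5. On the other side Gabpb1, a subunit of the transcription factor GABP 8.14 kb away, had 10.4 to 15.2 CPM in SF_HFD and 6.76 to 16.1 CPM in SF_CD (log2 fold change 0.00, edgeR adjusted p = 0.998). Beside Hs3st3b1, Cox10, a gene of heme A synthesis 40.3 kb away, had 19.4 to 31.6 CPM in SF_HFD and 17.8 to 58.6 CPM in SF_CD (edgeR adjusted p = 0.835), and Hs3st3a1 lies 513 kb away. The abundant neighbours of the 3 genes did not share their order of libraries.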

How the data were processed

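Groups follow the labelled diet, SF_HFD (n = 5) and SF_CD (n = 5). The values are estimated counts per gene that the authors deposited as whole numbers for 18 libraries. The submitters' processing notes name Salmon 1.3.0 and mm10. Annotation and filters are not stated there, and Salmon divides reads shared by near-identical copies by an estimate. Columns were assigned through the library name in each sample's description.

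The 8 CD and HFD libraries were left out for the reason given above. Over the other 10, edgeR 4.0.16 (quasi-likelihood, robust, in R 4.3.3) was run with TMM scaling, filterByExpr and Benjamini-Hochberg adjustment over all genes tested, and was tested on simulated data. CPM intervals are exact Poisson and shares exact binomial at 95%, and cover counting error only. A count of 0 was read as up to 3 counts. Log2 CPM for spread and likeness used a prior count of 2. Coordinates come from GENCODE M21, which holds 94.7% of the row identifiers, and promoters from RefSeq, where all 3 genes were found by symbol.

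The 3 genes, the motifs and the 7 pathway and 14 marker lists were chosen with earlier results of these data known. Named genes are the 3, the 6 nearest to each and the 8 nearest on average, called list genes or the 2 most abundant of a list, the close relatives Hs3st3a1, Hs3st1, Ddc, Ahsg, Hnmt and Aoc1, and chromosomal neighbours. Some genes that this rule takes are left out of the text. Alternatives were RLE scaling, no filter, a stricter filter (5 CPM in 5 libraries), DESeq2 1.42.0, a replicate block, leaving out each library, leaving out the 3 shallow libraries, a prior count of 0.5 and Spearman's rho.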

Additional observations from a re-analysis of the deposited data

Results flagged for a closer look

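Hdc in SF_HFD library 5, at 1.26 CPM, was far from the other 4 SF_HFD libraries, which had 0 to 0.0925 CPM. The gap made up 0.927 of the group's whole range. The value is a single count in a library of 727610 counts, with a 95% counting interval of 0.0320 to 7.04 CPM. With so few counts at such unequal depth, the usual rate of about 1 in 20 groups flagged by chance does not apply. The SF_HFD mean of Hdc was 0.0231 CPM without that library and 0.271 CPM with it.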

How the results depend on the processing

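Over all genes, 38 were called. The count was 78 with no filter, 21 with the stricter filter, which leaves all 3 genes untested, 298 with DESeq2 and 22 with the replicate block, and it ranged from 16 (without SF_HFD library 4) to 88 (without SF_CD library 2) when single libraries were left out, with 19 without SF_HFD library 2, 23 without SF_HFD library 5 and 24 without SF_CD library 4. Of list genes 6 were called, with 11 under no filter, 13 under DESeq2 and 5 to 10 when single libraries were left out. The share of genes with SF_CD libraries 4 and 5 highest was 3.87% under the stricter filter. Without SF_CD library 4, the filter on low counts removed Hdc. The log2 fold changes of the 3 genes stayed negative in all 44 alternatives that gave a value. They were -6.92 to -4.70 for Fetub, -4.76 to -3.47 for Hs3st3b1 and -9.85 to -7.52 for Hdc. Their edgeR or DESeq2 adjusted p was 0.05 or more in 9 of 15, 10 of 15 and 9 of 14 of these. Of the 8 genes nearest on average, 3 stayed among the nearest 8 by Spearman's rho, 1 without the 3 shallow libraries and 0 within SF_CD alone. The cause of the changes was not tested.

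Same-numbered libraries share only a number: the correlation of their deviations was -0.21 to 0.14, and 1 of the 5 SF_HFD libraries correlated best with its own number. With the replicate block the log2 fold changes were -4.79, -3.47 and -7.52 for Fetub, Hs3st3b1 and Hdc (edgeR adjusted p = 0.122, 0.183 and 0.0181), and 7 list genes were called. Depth limits SF_HFD library 5 and SF_CD libraries 1 and 5, where a count of 0 allows 3.79 to 6.76 CPM.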
